A study of Mus musculus with 96 samples.

Results

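The mitochondrial protein import machinery was followed here through 36 genes, out of 22384 measured in mouse back-skin epidermis. The 36 are the subunits and close partners of the translocases, the sorting machinery and the processing peptidase, named from what their proteins do. They were taken up because 1 of them, Tomm40, differed in its daily rhythm between RERE and WT epidermis, so that comparison is described below without a test. All 36 were expressed strongly enough to be tested, with a mean of at least 1 RPKM (reads per kilobase and sequencing depth, the scale on which the deposited log2 values behave).

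RNA was sequenced from epidermis in 96 libraries; the C57BL/6 donors were males, 8 weeks old, with free access to chow and a day of 12 h light and 12 h darkness. In each of 4 genotypes, 4 mice were taken at each of 6 times, 4 h apart from lights on (zeitgeber time 0, ZT0). RERE mice (Arntl stopFL/stopFL with K14Cre tg/wt and with Syt10-Cre tg/wt) carry a stop cassette in Arntl, the gene of the clock activator BMAL1, that Cre removes in brain and epidermis. EpiRE mice (Arntl stopFL/stopFL with K14Cre tg/wt and with Syt10-Cre wt/wt) have it removed in epidermis alone, and BRE mice (Arntl stopFL/stopFL with K14Cre wt/wt and with Syt10-Cre tg/wt) in brain alone. WT mice (Arntl wt/wt with K14Cre wt/tg and with Syt10-Cre tg/wt) have an intact clock and carry both Cre drivers. K14-Cre acts in keratinocytes and Syt10-Cre in the brain, so tissues other than these stay without a working Arntl in all but WT.

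Most mitochondrial proteins are made in the cytosol and enter the organelle through TOM, the translocase of the outer membrane. From there presequence proteins pass the inner membrane through TIM23, pulled by the matrix motor PAM, and lose their presequence to the peptidase MPP. Carrier proteins are escorted by small TIM chaperones to TIM22, barrel-shaped outer membrane proteins are inserted by SAM, and cysteine-rich proteins of the intermembrane space are folded and oxidized by the MIA pair.

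Keratinocyte genes dominated every library. The 7 basal markers summed to between 10625 and 18889 RPKM per library and the 9 measured differentiation markers to between 6286 and 20859. The summed level of 6 adipocyte markers stayed at or under 2.23 RPKM and that of 4 endothelial markers at or under 0.55 RPKM. Other marker lists had higher sums per library, of 24.8 to 96.5 RPKM over 5 T cell markers, 71.4 to 179 RPKM over 6 markers of Langerhans and dendritic cells, 7.58 to 192 RPKM over 3 blood markers, 31.8 to 53.9 RPKM over 8 muscle markers, 6.00 to 29.0 RPKM over 5 melanocyte markers and 1.17 to 21.2 RPKM over 6 fibroblast markers. Single genes led several of these sums, with means of 42.0 RPKM for Thy1 (T cell), 44.7 RPKM for Epcam (Langerhans and dendritic) and 35.9 RPKM for Acta1 (muscle). Of the 8 muscle markers only 2 were strong enough to test. Estimated depth was 11.4 M to 32.8 M reads per library (M for mega), with medians of 16.8 M in RERE, 14.9 M in EpiRE, 16.2 M in BRE and 18.1 M in WT. Of the 36 genes, 15 overlap a coding gene on the opposite strand and 2 of these also one on the same strand. Whether reads were counted by strand is not given in the sources used here, so the levels of Tomm6, Tomm40l, Tomm70a, Tomm34, Timm8b, Timm9, Timm10b, Timm13, Timm17b, Timm21, Pam16, Dnajc19, Grpel1, Mtx1 and Pmpca may hold reads of a neighbour. Gfer, Tomm40, Samm50, Mtx2, Timm50, Hspa9 and Grpel2 overlap no coding gene. Reads that Tomm40 and Tomm40l, Timm17a and Timm17b, or Grpel1 and Grpel2 share as related copies could be split between them.

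Of the 36 genes, 31 had a promoter in the RefSeq table (GRCm38.p6), and the 250 bases before the transcription start were searched on both strands in 33 promoters of theirs. The clock E-box CACGTG stood in those of 3 genes, Timm8a1, Timm9 and Tomm20, against 6.02% of all 32851 promoters. Its variant CACGTT was found in that of Chchd4 and in 3.85% of all promoters. The D-box TTATGTAA and the palindromic core of the NRF1 motif were found in none of them, against 0.819% and 0.782% of all promoters. CCAAT stood in the promoters of 9 genes and in 33.8% of all. The promoter of Tomm40 held 5 copies, which 70 of all promoters (0.213%) reached, a count looked up after the sequence had been seen. These matches describe letters and not bound sites. Below, 4 promoters are written 5′ to 3′ on the minus strand, on which all 4 genes lie, ending at the base before the RefSeq start. By GENCODE, Tomm40, Timm9 and Timm8a1 start at 19715438, 71136684 and 134541865, inside these windows. Most of the Timm8a1 window thus lies within the gene as GENCODE places it. Gfer is shown for the largest daily rhythm of the 36, Tomm40 as the gene behind the choice, and Timm9 and Timm8a1 for the E-box. Capitals mark CACGTG in Timm9 and Timm8a1 and CCAAT in Tomm40, and the Gfer window holds neither.
Gfer, chr17:24696157-24696406: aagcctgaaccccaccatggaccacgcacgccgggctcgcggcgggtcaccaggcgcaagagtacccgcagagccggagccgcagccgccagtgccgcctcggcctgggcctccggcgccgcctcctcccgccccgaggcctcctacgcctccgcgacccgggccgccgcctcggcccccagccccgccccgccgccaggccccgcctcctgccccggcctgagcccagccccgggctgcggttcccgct
Tomm40, chr7:19715430-19715679: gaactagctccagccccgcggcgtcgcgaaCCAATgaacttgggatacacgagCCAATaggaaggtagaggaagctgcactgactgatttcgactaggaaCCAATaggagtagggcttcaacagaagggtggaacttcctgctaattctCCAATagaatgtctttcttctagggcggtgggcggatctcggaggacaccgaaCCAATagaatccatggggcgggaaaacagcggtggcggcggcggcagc
Timm9, chr12:71136676-71136925: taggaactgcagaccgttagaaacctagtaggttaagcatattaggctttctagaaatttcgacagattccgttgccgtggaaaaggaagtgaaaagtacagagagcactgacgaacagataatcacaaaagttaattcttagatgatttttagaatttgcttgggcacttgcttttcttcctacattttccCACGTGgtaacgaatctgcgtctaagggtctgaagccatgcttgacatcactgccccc
Timm8a1, chrX:134541671-134541920: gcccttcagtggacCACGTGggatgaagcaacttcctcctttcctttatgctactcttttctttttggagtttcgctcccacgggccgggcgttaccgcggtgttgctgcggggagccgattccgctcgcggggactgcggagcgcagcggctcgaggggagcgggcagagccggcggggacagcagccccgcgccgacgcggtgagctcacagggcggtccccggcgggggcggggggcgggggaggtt

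The 36 genes were expressed at middle to high levels. Their mean levels over all 96 libraries ran from 2.66 RPKM in Timm10b, a small TIM family member of the TIM22 complex, to 72.7 RPKM in Hspa9, the mitochondrial Hsp70 that drives the import motor. Their median was 15.8 RPKM, against 9.28 RPKM for all 12144 tested genes, and 30 of the 36 lay above that. After Hspa9 came Tomm22, a receptor at the core of TOM (62.6 RPKM), Timm23, the channel-forming subunit of TIM23 (57.5 RPKM), and Gfer, the sulfhydryl oxidase that recharges the MIA oxidoreductase (56.1 RPKM). Tomm7, a small TOM subunit, averaged 43.6 RPKM and Samm50, the SAM barrel, 40.4 RPKM. Tomm40, which forms the outer membrane pore itself, averaged 11.4 RPKM, ranging from 7.85 to 15.2 RPKM over the libraries. Its genotype means of 11.2 ± 0.995 RPKM in RERE, 11.4 ± 1.3 in EpiRE, 11.3 ± 1.22 in BRE and 11.9 ± 1.72 in WT (SD, n = 24 each) lay closer together than mice of 1 genotype. The 4 tables were normalized apart, so levels of different genotypes stand side by side without a test. In whole epidermis, fewer cells of a type and less RNA per cell cannot be told apart.

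**Figure D1:**
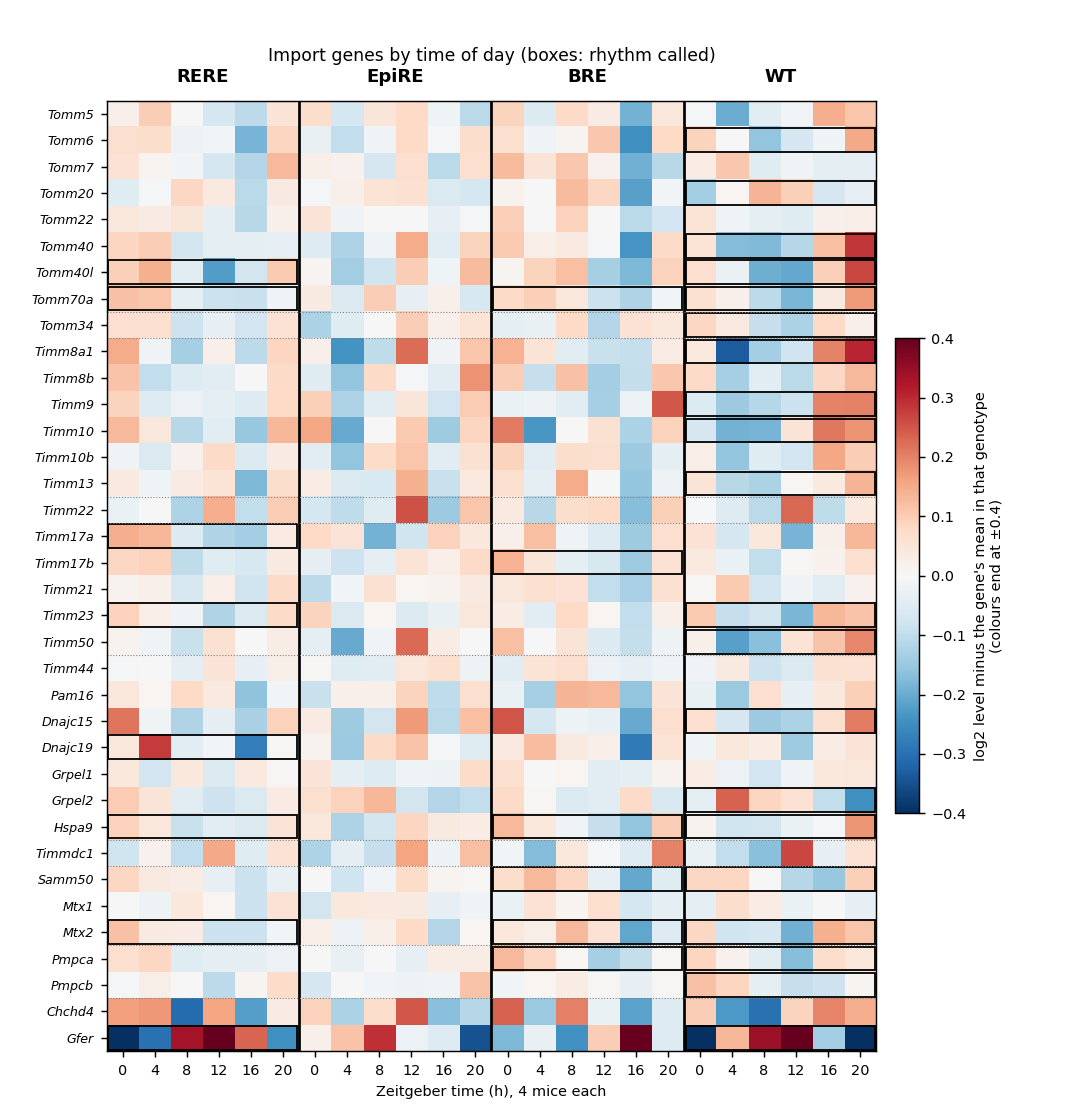
Mean log2 level of each of the 36 import genes (rows, grouped by complex with dotted lines) at each zeitgeber time in h (columns, 4 mice each) minus the mean of that gene in that genotype. Boxes mark the 8 rhythms called in RERE, 0 in EpiRE, 6 in BRE and 20 in WT. Of the 20 in WT 13, Tomm40 among them, peak between ZT18 and ZT24 (6 of 15 after rescaling).

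Tomm40 (ENSMUSG00000002984, mm10 chromosome 7, 19701313 to 19715438, minus strand) was nearly level over the day in RERE and high late at night in WT. At ZT8 the 4 mice had 11.4, 10.7, 10.8 and 9.52 RPKM in RERE, 11.1, 11.9, 12.0 and 9.78 RPKM in EpiRE, 11.4, 11.5, 12.4 and 10.8 RPKM in BRE, and 9.85, 10.4, 10.7 and 10.7 RPKM in WT. At ZT20 they had 12.8, 10.1, 10.4 and 10.6 RPKM in RERE, 11.6, 14.1, 9.28 and 13.7 RPKM in EpiRE, 11.7, 12.6, 11.6 and 11.5 RPKM in BRE, and 15.2, 14.6, 15.0 and 12.8 RPKM in WT. All 4 WT mice at ZT20 lay above all 4 at ZT8, while RERE, EpiRE and BRE mice of these times overlapped. Both times were chosen from the WT fit. At the times of highest and lowest mean in other genotypes, BRE mice at ZT0 (11.65 to 12.58 RPKM) lay above those at ZT16 (7.85 to 11.03 RPKM). EpiRE mice at ZT12 (11.59 to 14.01 RPKM) lay above those at ZT4 (9.41 to 11.36 RPKM), and RERE mice of ZT4 and ZT8 overlapped. The fitted peak-to-trough difference of a 24 h curve, the measure of rhythm size used below, was 0.15 ± 0.07 log2 in RERE (SE, 24 mice) and 0.47 ± 0.07 log2 in WT, a difference of -0.32 ± 0.10 log2. The WT curve peaked at ZT19.4, when its fitted level was 1.38-fold that of its trough. The fitted rhythm was 0.16 ± 0.09 log2 in EpiRE with a peak at ZT14.7 (adjusted p = 0.484) and 0.22 ± 0.09 log2 in BRE with a peak at ZT2.42 (adjusted p = 0.179), so neither was called.

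**Figure D2:**
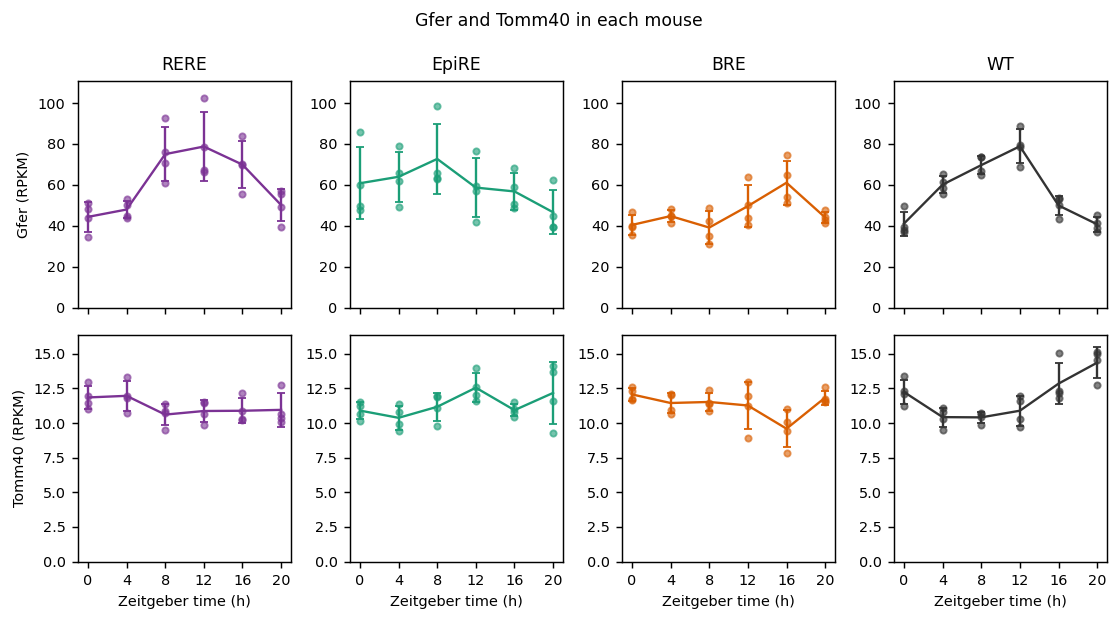
RPKM of Gfer (top) and Tomm40 (bottom) in every mouse (points) by zeitgeber time in h, with the mean and SD of 4 mice as line and bars, in RERE, EpiRE, BRE and WT from left to right. Gfer has its highest mean at ZT12 in RERE and WT, at ZT8 in EpiRE and at ZT16 in BRE, and Tomm40 its highest at ZT20 in WT.

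Between RERE and WT, Tomm40 was 1 of 55 genes whose rhythm differed at an adjusted p below 0.05 (0.453% of the tested genes), and no other of the 36 was among them. As this is the contrast that led to the list, its values are given as a description. The difference curve, RERE minus WT, had a peak-to-trough size of 0.49 log2 for Tomm40. Larger but less precise sizes were fitted for Gfer (0.59 log2), Chchd4 (0.58 log2), the oxidoreductase of MIA, and the small chaperone genes Timm10 (0.54 log2) and Timm8a1 (0.51 log2). The median over the 36 genes was 0.24 log2 and that over all tested genes 0.19 log2.

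WT epidermis had the most daily rhythms among import genes. Of the 36 genes, 20 were called there (19 without Tomm40; limma F test of a 24 h harmonic, adjusted p below 0.05), against a background of 34.4% of all tested genes. The rhythms were small, with a median of 0.25 log2 over the 36 genes and 0.23 log2 over all tested genes. Called genes came from every group but TIM22 (Timm22) and the complex I assembly factor Timmdc1, which belongs to the TIM family by sequence. They made up 5 of 8 TOM genes, 4 of 6 small chaperones, 2 of 5 TIM23 genes, 3 of 7 motor genes, 2 of 3 SAM genes, both subunits of MPP, 1 of the MIA pair and the cytosolic cofactor Tomm34.

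Among TOM genes in WT, Tomm40l, a relative of Tomm40, peaked at ZT20.7 (0.45 ± 0.06 log2, adjusted p = 4.04e-05), Tomm70a, a receptor for carrier proteins, at ZT21.7, and the small subunit Tomm6 at ZT21.4. Tomm20, the presequence receptor, peaked at ZT9.49 instead (0.23 ± 0.06 log2, adjusted p = 0.0216). The fitted peaks of the small chaperone genes all lay in the night, between ZT17.2 and ZT19.7 (ZT16.7 to ZT19.2 after rescaling). Of all tested genes, 21.25% had their fitted WT peak between ZT12 and ZT18 and 38.3% between ZT18 and ZT24. Timm8a1 (chromosome X, 134537256 to 134541865, minus strand) varied by 0.56 ± 0.12 log2 with a peak at ZT18.3 (adjusted p = 0.00374), Timm10 by 0.45 ± 0.11 log2 at ZT17.2 (adjusted p = 0.0101), and Timm9 and Timm13 peaked at ZT18.1 and ZT19.0. In WT, Timm8a1 averaged 2.98 ± 0.48 RPKM at ZT4 and 4.61 ± 0.38 RPKM at ZT20 (SD, n = 4 each). Timm8b and Timm10b had fitted peaks at ZT19.7 and ZT18.2 without being called (adjusted p = 0.191 and 0.0769).

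In the inner membrane and matrix, the WT rhythms of Timm50, the TIM23 receptor (0.40 ± 0.08 log2, adjusted p = 0.00128), of Timm23, of the motor regulator Dnajc15 and of Hspa9 peaked at ZT17.9, ZT20.5, ZT20.4 and ZT19.7. Grpel2, a nucleotide exchange factor of Hspa9, ran in the opposite phase, with a peak at ZT6.60 (0.39 ± 0.07 log2, adjusted p = 0.00114). Its partner Grpel1 was not called (0.12 ± 0.06 log2, adjusted p = 0.316). Around lights on came Samm50 at ZT1.25 (0.25 ± 0.05 log2, adjusted p = 0.00201) and Pmpcb, the catalytic subunit of MPP, at ZT1.18, with Pmpca, its other subunit, at ZT22.4 and Tomm34 at ZT22.1. Mtx2, a SAM partner on the cytosolic face, peaked at ZT20.4 (0.29 ± 0.06 log2, adjusted p = 0.00411). Of the 20 called WT rhythms 13, that of Tomm40 among them, peaked between ZT18 and ZT24, where 47.8% of all called genes peaked. When libraries were rescaled by median-of-ratios these were 6 of 15, so the gathering of peaks in that span depends on the scaling. Hspa9, Tomm6, Timm13, Tomm34 and Pmpca lost their WT calls there (adjusted p = 0.119, 0.0623, 0.0613, 0.144 and 0.172). The calls of Pmpca, Timm9, Timm13 and Tomm34 in WT were each lost without 1 library, of which there were 4, 7, 1 (ZT20 replicate 2) and 13, with an adjusted p of up to 0.0568, 0.0684, 0.0536 and 0.086.

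The summed level of 5 T cell markers moved in the same direction, averaging 38.6 RPKM at ZT8 and 77.4 RPKM at ZT20 in WT libraries, and 1 of the 5 (Thy1) was called. From ZT8 to ZT20 in WT, the mean sums also rose for melanocyte (10.4 to 18.2 RPKM), blood (25.7 to 49.1 RPKM) and fibroblast markers (6.1 to 9.4 RPKM). Those of muscle (36.8 to 44.5 RPKM) and of Langerhans and dendritic cells (88.5 to 103 RPKM) rose too. The 7 basal keratinocyte markers averaged 14731 RPKM at ZT8 and 15482 RPKM at ZT20 in WT, with 1 called (Col17a1), and the 9 differentiation markers 12912 RPKM at ZT8 and 10934 RPKM at ZT20, with 2 called (Ivl and Tgm3). The part of cell composition in the import gene rhythms was not tested. Of 13 tested markers of Langerhans cells, melanocytes, fibroblasts, muscle and blood, limma called 0 in each genotype, with 1 in RERE, 3 in EpiRE, 1 in BRE and 1 in WT at an unadjusted p under 0.05. This pool leaves out the T cell and keratinocyte lists, which had calls. All marker counts stand against 16.4% of all tested genes called in RERE, 2.87% in EpiRE, 17.1% in BRE and 34.4% in WT.

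**Figure D3:**
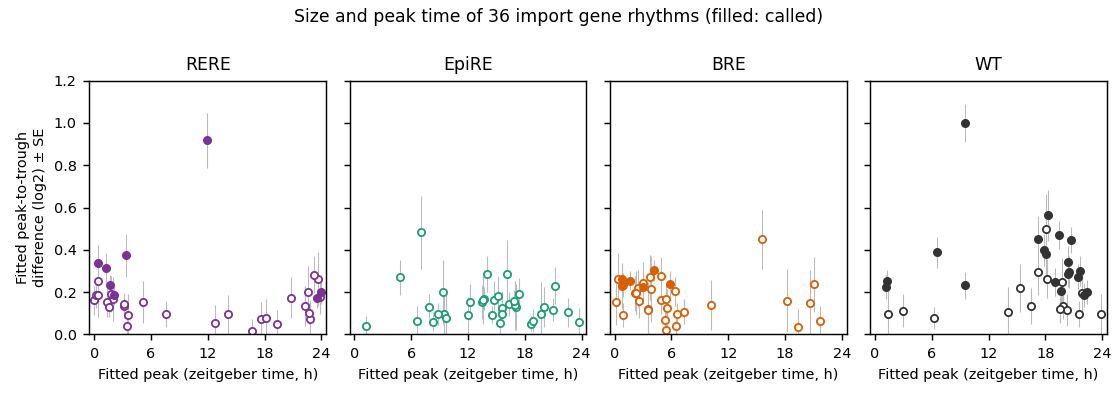
Fitted peak-to-trough difference (log2, bars are SE) against fitted peak time (zeitgeber time in h) for the 36 import genes in RERE, EpiRE, BRE and WT, filled where the rhythm was called. Called peaks lie between ZT0 and ZT6 in BRE, 13 of 20 in WT, Tomm40 among them, lie between ZT18 and ZT24 (6 of 15 after rescaling), and Gfer is the highest point in each panel.

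Gfer (ENSMUSG00000040888, chromosome 17, 24693187 to 24696156, minus strand) had the largest fitted rhythm of the 36 genes in all 4 genotypes and was high in the light phase in WT. At ZT8 the 4 mice had 76.0, 61.0, 70.5 and 92.7 RPKM in RERE, 66.0, 62.9, 63.4 and 98.5 RPKM in EpiRE, 30.9, 34.8, 48.6 and 42.3 RPKM in BRE, and 73.6, 73.5, 66.9 and 64.7 RPKM in WT. At ZT20 they had 39.4, 56.8, 55.4 and 49.0 RPKM in RERE, 39.6, 39.5, 62.4 and 45.0 RPKM in EpiRE, 43.1, 41.2, 44.4 and 47.8 RPKM in BRE, and 41.6, 37.0, 39.2 and 45.3 RPKM in WT. In RERE, EpiRE and WT all mice at ZT8 lay above all mice at ZT20, narrowly so in EpiRE, and in BRE these times, chosen from the WT fit, overlapped. All 4 BRE mice at ZT16, with 50.9, 74.6, 54.1 and 64.6 RPKM, lay above all 4 BRE mice at ZT8. The BRE mice at ZT8 also lay below every mouse at that time in RERE, EpiRE and WT, across tables that were normalized apart. The fitted rhythm was 0.92 ± 0.13 log2 in RERE with a peak at ZT11.9 (adjusted p = 0.000237) and 1.00 ± 0.09 log2 in WT with a peak at ZT9.53 (adjusted p = 2.03e-07). It was not called in EpiRE (0.48 ± 0.17 log2, ZT7.04, adjusted p = 0.212) or in BRE (0.45 ± 0.14 log2, ZT15.6, adjusted p = 0.0687).

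Apart from RERE against WT, the Gfer rhythm was tested in 5 contrasts and differed in 4. The adjusted p of each contrast tests size and phase together, and not the size difference printed beside it. EpiRE against WT did not pass (-0.52 ± 0.20 log2, adjusted p = 0.0545). The fitted rhythm was smaller and later in BRE than in WT (-0.55 ± 0.17 log2, adjusted p = 2.61e-05). RERE differed from EpiRE (adjusted p = 0.0293), with a fitted size larger by 0.44 ± 0.22 log2. It differed from BRE too (adjusted p = 0.0333), with a fitted size larger by 0.47 ± 0.19 log2. BRE differed from EpiRE as well (adjusted p = 0.028), with a difference in fitted size of -0.03 ± 0.23 log2. The fitted peaks stood at ZT15.6 in BRE and ZT7.04 in EpiRE, and neither rhythm was called. Of the 4, the difference of BRE from WT held without any single library, with an adjusted p of at most 7.56e-05. The difference of RERE from EpiRE was lost without 1 of 4 libraries (EpiRE ZT4 replicate 1, EpiRE ZT12 replicate 3, RERE ZT4 replicate 1 or RERE ZT16 replicate 1; adjusted p = 0.0546, 0.0528, 0.0501 and 0.0515), that from BRE without 1 of 10 (adjusted p up to 0.0681), and that of BRE from EpiRE without BRE ZT16 replicate 2 (adjusted p = 0.0572). Without the highest EpiRE mouse, at 98.5 RPKM and ZT8, the test of RERE against EpiRE kept its call. With time fitted as 6 free levels that test lost it (adjusted p = 0.164), as did BRE against EpiRE (adjusted p = 0.0775). With no filter on low values, only BRE against WT of the 4 was still called. Chchd4, the other gene of the MIA pair, was called in no genotype, its largest fitted rhythm being that in WT (0.50 ± 0.16 log2, ZT18.1, adjusted p = 0.0585).

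In RERE epidermis 8 of the 36 genes were called, with a background of 16.4%. After Gfer the largest were Dnajc19, a motor co-chaperone (0.37 ± 0.10 log2, ZT3.37, adjusted p = 0.0374), Tomm40l (0.34 ± 0.08 log2, ZT0.43, adjusted p = 0.02) and Timm17a, a TIM23 subunit (0.31 ± 0.07 log2, ZT1.28, adjusted p = 0.0127). Dnajc19 averaged 5.48 ± 0.56 RPKM at ZT4 and 3.73 ± 0.27 RPKM at ZT16 in RERE (SD, n = 4 each). The others were Tomm70a at ZT1.70 (adjusted p = 0.00371), Mtx2 at ZT2.05, Timm23 at ZT23.9 and Hspa9 at ZT23.6. Of the 6 small chaperone genes, limma called 0 in RERE, with 0 at an unadjusted p under 0.05 (fitted sizes 0.06 to 0.26 log2, adjusted p of at least 0.299). The calls of Dnajc19, Timm23 and Hspa9 were lost without 1 of 10, 14 and 3 RERE libraries (adjusted p up to 0.0863, 0.107 and 0.0594). After rescaling 5 of the 36 were called in RERE, against 14.8% of all tested genes: Mtx2, Timm23 and Hspa9 lost their calls (adjusted p = 0.0986, 0.19 and 0.174). T cell markers in RERE summed to 73.5 RPKM at ZT0 and 35.1 RPKM at ZT12, with Thy1 called, and the part of those cells was not tested.

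In EpiRE epidermis 0 of the 36 genes were called by limma, with 6 at an unadjusted p under 0.05 and a background of 2.87%. The fitted sizes ran from 0.04 log2 in Tomm22 to 0.48 log2 in Gfer, with a median of 0.13 log2 over the 36 and 0.15 log2 over all tested genes. After Gfer came Timm8a1 (0.29 ± 0.16 log2, adjusted p = 0.48) and Timm50 (0.29 ± 0.09 log2, ZT14.0, adjusted p = 0.121). In the authors' deposited tables the JTK_CYCLE q values were also below 0.05 for 0 of the 36 genes in EpiRE, against 0.156% of the 12144 tested genes.

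In BRE epidermis 6 of the 36 genes were called, close to the background of 17.1%. All 6 peaked between ZT0 and ZT6, as did 56.5% of all called genes, and 2 of the 3 called after rescaling did. They were Samm50 (0.30 ± 0.05 log2, ZT4.20, adjusted p = 0.00237), Hspa9 (0.26 ± 0.06 log2, ZT0.74, adjusted p = 0.0198), Pmpca (0.26 ± 0.04 log2, ZT1.63, adjusted p = 0.00265), Mtx2 (0.24 ± 0.06 log2, ZT5.84, adjusted p = 0.0311), Timm17b, a TIM23 subunit, at ZT0.86, and Tomm70a at ZT2.95. After rescaling, Mtx2, Pmpca and Samm50 kept their calls and Hspa9, Timm17b and Tomm70a lost theirs (adjusted p = 0.0732, 0.0567 and 0.119). The call of Mtx2 was also lost without 1 of 5 BRE libraries (ZT8 replicate 3 or 4, or ZT16 replicate 2, 3 or 4; adjusted p up to 0.0587), and that of Tomm70a without BRE ZT4 replicate 1 or ZT16 replicate 2 or 4 (adjusted p up to 0.0576). Over the same hours the differentiation marker sum was 12154 RPKM at ZT0 and 16937 RPKM at ZT8 in BRE, with 4 of 9 called (Krt10, Ivl, Sbsn and Tgm1), and the basal sum 15398 and 12866 RPKM, with 2 of 7 called (Itga6 and Col17a1). The T cell sum in BRE was 83.1 RPKM at ZT0 and 60.3 RPKM at ZT16, with Cd3d called. Their part in the BRE rhythms was not tested.

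The clock runs in the brain of both BRE and WT mice, and in the rest of the body of WT alone. Rhythms of 11 of the 36 genes differed between them (10 without Tomm40), against 20.2% of all tested genes, 10 of them, Tomm40 included, with the larger fitted rhythm in WT and Hspa9 with the larger in BRE. Of all tested genes 34.4% were called in WT and 17.1% in BRE. Directions were not counted over all tested genes, here or in the contrasts below. Next to Gfer the smallest p belonged to Mtx2 (chromosome 2, 74825803 to 74878431, plus strand), whose rhythm was called in both genotypes, with fitted peaks far apart in the day. At ZT8 its 4 mice had 20.4, 19.9, 21.9 and 21.5 RPKM in BRE and 20.3, 19.4, 18 and 19.0 RPKM in WT. At ZT20 they had 18.7, 19.7, 17.8 and 17.6 RPKM in BRE and 22.7, 20.6, 22.4 and 21.1 RPKM in WT. The mice of ZT8 lay above those of ZT20 in BRE and below them in WT, with no overlap in either. The sizes differed little (-0.05 ± 0.09 log2), and the fitted peaks stood at ZT5.84 in BRE and ZT20.4 in WT (adjusted p = 0.000268).

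Timm50 (chromosome 7, 28305516 to 28312072, minus strand) had 21.4, 17.8, 18.5 and 18 RPKM in BRE and 18.3, 17.4, 19.4 and 19.6 RPKM in WT at ZT4. At ZT16 the values were 20.6, 16.3, 19.1 and 15.3 RPKM in BRE and 23.3, 19.5, 23.7 and 28 RPKM in WT. WT mice were higher at ZT16 apart from 1 that reached no further than the top of ZT4, and BRE mice of the 2 times overlapped broadly. Both times were chosen from the WT fit. The fitted rhythm was 0.16 ± 0.08 log2 in BRE and 0.40 ± 0.08 log2 in WT, a size difference of -0.24 ± 0.11 log2 (adjusted p = 0.00288 for size and phase together).

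Tomm40l likewise had 0.25 ± 0.10 log2 at ZT2.94 in BRE and 0.45 ± 0.06 log2 at ZT20.7 in WT (adjusted p = 0.0031). Grpel2 (chromosome 18, 61712424 to 61726325, minus strand) had 18, 13.3, 17.1 and 15.1 RPKM in BRE and 16.9, 15.6, 14.6 and 17.2 RPKM in WT at ZT8. At ZT20 it had 16.9, 16.4, 15.1 and 14.5 RPKM in BRE and 10.7, 14.6, 13.3 and 12.8 RPKM in WT. The times, chosen from the WT fit, overlapped in BRE and were apart, though barely, in WT. The rhythms differed (adjusted p = 0.00659 for size and phase together), with a size difference of -0.32 ± 0.10 log2. Timm13, Timm8a1, Tomm70a, Hspa9 and Timm23 also differed (adjusted p = 0.0135, 0.0151, 0.0219, 0.0286 and 0.0473). After rescaling, 7 of the 10 tested genes were still called, the exceptions being Tomm70a, Hspa9 and Timm23. The Timm23 call was lost without 1 of 27 libraries (adjusted p up to 0.0943), and that of Hspa9 without BRE ZT16 replicate 2, WT ZT4 replicate 3 or WT ZT16 replicate 4 (adjusted p = 0.0631, 0.053 and 0.0544).

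**Figure D4:**
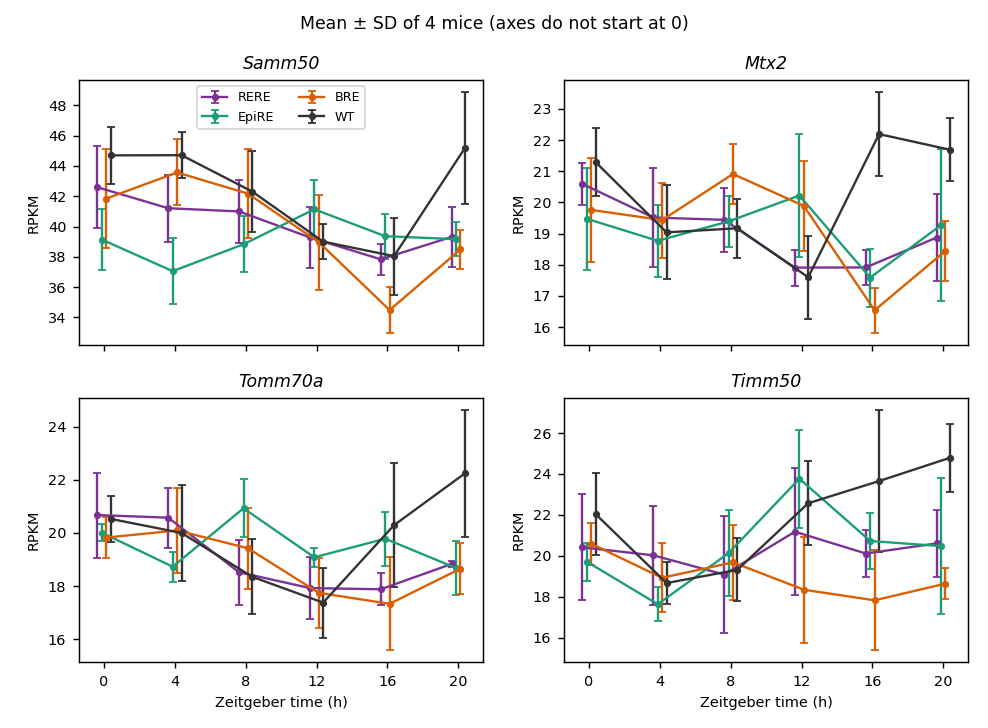
Mean ± SD of 4 mice (RPKM) by zeitgeber time in h for Samm50, Mtx2, Tomm70a and Timm50 in RERE, EpiRE, BRE and WT. Mtx2 in BRE is highest at ZT8 (20.9 RPKM), where WT is at 19.2 RPKM, and Samm50 has its smallest fitted rhythm (0.09 log2) in EpiRE.

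The epidermal clock is present in both EpiRE and WT, and that of other tissues in WT alone. Of all tested genes 34.4% were called in WT and 2.87% in EpiRE. Rhythms of 6 of the 36 genes differed (5 without Tomm40), against 8.51% of all tested genes, all 6, Tomm40 among them, with the larger fitted rhythm in WT. Samm50 (chromosome 15, 84192241 to 84217267, plus strand) led them (0.09 ± 0.04 log2 at ZT14.6 in EpiRE and 0.25 ± 0.05 log2 at ZT1.25 in WT, adjusted p = 0.00217). Tomm70a had 0.06 ± 0.05 log2 in EpiRE and 0.30 ± 0.07 log2 in WT, a size difference of -0.24 ± 0.09 log2 (adjusted p = 0.0164 for size and phase together). At ZT8 its 4 mice had 19.7, 21.8, 21.9 and 20.3 RPKM in EpiRE and 20.2, 18, 16.8 and 18.4 RPKM in WT. At ZT20 they had 18.3, 18.6, 17.7 and 20.1 RPKM in EpiRE and 24, 24.4, 21.2 and 19.3 RPKM in WT. The highest EpiRE mice were those of ZT8 and the highest WT mice those of ZT20, with overlap of the times in both genotypes. Tomm34 had fitted rhythms of nearly the same size, at ZT13.7 in EpiRE, where it was not called, and at ZT22.1 in WT (adjusted p = 0.0229 for size and phase together). Those of Tomm40l and Mtx2 differed as well (adjusted p = 0.0424 and 0.0431), with the smaller fitted size in EpiRE. The calls of Mtx2 and Tomm40l were lost without 1 of 26 and of 20 libraries (adjusted p up to 0.0792 and 0.0731), and after rescaling only Samm50 of these 5 was still called.

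RERE differs from EpiRE by the clock of the brain. Rhythms of 3 of the 36 genes differed, against 4.04% of all tested genes, all with the larger fitted rhythm in RERE. Besides Gfer these were Samm50 (0.14 ± 0.04 log2 in RERE and 0.09 ± 0.04 log2 in EpiRE, called in neither, fitted peaks at ZT3.14 and ZT14.6, adjusted p = 0.0306 for size and phase together) and Tomm70a (0.23 ± 0.05 log2 in RERE and 0.06 ± 0.05 log2 in EpiRE, adjusted p = 0.0394). Each was lost when 1 library was left out (1 of 5 for Samm50, adjusted p up to 0.0663, and 1 of 16 for Tomm70a, adjusted p up to 0.0761), and after rescaling only Gfer of the 3 was still called (adjusted p = 0.13 for Samm50 and 0.216 for Tomm70a). With time as 6 free levels it was Tomm70a that kept its call (adjusted p = 0.0331), not Gfer (0.164) or Samm50 (0.151). The Gfer call was lost without 3 of the 4 replicate numbers (adjusted p up to 0.317). The count of 3 fell to 0 or 1 without EpiRE ZT4 replicate 1 or 2, RERE ZT0 replicate 2 or 4, RERE ZT4 replicate 1 or RERE ZT16 replicate 1. It was 5 to 7 without EpiRE ZT0 replicate 1, ZT8 replicate 1, ZT16 replicate 2 or ZT20 replicate 3, or without RERE ZT0 replicate 1, ZT12 replicate 3 or 4, or ZT20 replicate 3 or 4. RERE differs from BRE by the clock of the epidermis, and there 1 of the 36 genes, Gfer, differed, against 4.79% of all tested genes.

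BRE and EpiRE hold the clock in 1 tissue each. Rhythms of 7 of the 36 genes differed, against 13.9% of all tested genes, 5 of them with the larger fitted rhythm in BRE. Samm50 stood first (adjusted p = 0.000309). At ZT4 its 4 mice had 44.8, 44.2, 40.3 and 44.9 RPKM in BRE and 34.4, 36.8, 37.3 and 39.8 RPKM in EpiRE. At ZT16 they had 36.1, 33.7, 35.3 and 32.8 RPKM in BRE and 39.7, 37.4, 39.3 and 41.0 RPKM in EpiRE. BRE mice were higher at ZT4 than at ZT16 without overlap, also counting the ZT4 mouse at 40.3 RPKM that lay apart from its group, and EpiRE mice of the 2 times overlapped. Both times were chosen from the BRE fit. In WT the values were 46.0, 43.7, 43.1 and 46.0 RPKM at ZT4 and 38.6, 34.5, 40.6 and 38.5 RPKM at ZT16.

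Pmpca had 15.7, 16.4, 17.0 and 16.3 RPKM in BRE and 15.2, 14.6, 14.8 and 14.7 RPKM in EpiRE at ZT0, and 13.4, 13.4, 13.7 and 14.1 RPKM in BRE and 14.3, 15.2, 14.1 and 14.4 RPKM in EpiRE at ZT12. At these times, chosen from the BRE fit, BRE mice were apart and EpiRE mice overlapped (0.26 ± 0.04 log2 in BRE and 0.05 ± 0.04 log2 in EpiRE, adjusted p = 0.00295). Hspa9 had 73.0, 82.6, 77.2 and 79.5 RPKM in BRE and 76.8, 74.6, 75.6 and 75.3 RPKM in EpiRE at ZT0. At ZT12 it had 69.1, 61.5, 68.0 and 68.9 RPKM in BRE and 77.2, 71.3, 81.4 and 81.5 RPKM in EpiRE. Again only the BRE mice of these times, chosen from the BRE fit, were apart (adjusted p of the rhythm difference = 0.00755). Timm17b followed (0.24 ± 0.06 log2 at ZT0.86 in BRE and 0.14 ± 0.06 log2 at ZT16.3 in EpiRE, adjusted p = 0.00999). Timm50 and Tomm40l completed the 7 with Gfer (adjusted p = 0.0262 and 0.0488). Tomm40 was not called in this contrast (adjusted p = 0.0831). The call of Tomm40l was lost without 1 of 34 libraries (adjusted p up to 0.0942). After rescaling Gfer, Hspa9, Samm50 and Timm17b kept their calls in this contrast, and Pmpca, Timm50 and Tomm40l lost theirs (adjusted p = 0.0678, 0.0627 and 0.0656).

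Genes that work beside the import machinery were counted in 3 lists, to be read against the 16.4% of all tested genes called in RERE, 2.87% in EpiRE, 17.1% in BRE and 34.4% in WT. Of 11 tested genes with other import roles (a further 2, Timm8a2 and Tomm20l, were too weak to test), 4 were called in RERE, 1 in EpiRE, 3 in BRE and 3 in WT. Mipep, an intermediate peptidase that trims imported proteins, varied by 0.43 ± 0.08 log2 at ZT0.16 in RERE (adjusted p = 0.00235), by 0.39 ± 0.08 log2 at ZT0.14 in BRE (adjusted p = 0.0104) and by 0.44 ± 0.08 log2 at ZT22.5 in WT. Pitrm1, which degrades cleaved presequences, was called in all 4 genotypes, also in EpiRE (0.27 ± 0.06 log2, ZT16.3, adjusted p = 0.0273). Of 6 matrix chaperones and proteases, 1 was called in RERE, 0 in EpiRE by limma (1 at an unadjusted p under 0.05), 1 in BRE (Trap1) and 4 in WT, where Hspd1, the matrix chaperonin Hsp60, varied by 0.52 ± 0.08 log2 at ZT19.7 (adjusted p = 0.000131). Of 8 genes of MICOS, the complex that shapes cristae, 1 was called in RERE, 1 in EpiRE, 0 in BRE by limma (4 at an unadjusted p under 0.05) and 4 in WT. Immt, its core subunit mitofilin, varied by 0.26 ± 0.03 log2 in WT with a peak at ZT18.7 (adjusted p = 3.05e-05). Chchd6 had its largest fitted rhythm in EpiRE (0.61 ± 0.11 log2, ZT13.1, adjusted p = 0.0188).

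Between BRE and WT 1 of the 11, 3 of the 6 and 3 of the 8 differed (20.2% of all tested genes), led by the MICOS gene Apoo (0.20 ± 0.07 log2 in BRE and 0.58 ± 0.10 log2 in WT, adjusted p = 0.000216). Between EpiRE and WT the counts were 1, 3 and 4 (8.51% of all), with Apoo first (adjusted p = 0.00808), and between BRE and EpiRE 2, 1 and 1 (13.9% of all), with Chchd6 first (adjusted p = 0.000984). RERE and EpiRE differed for 1 gene of each list (Mipep, Trap1 and Chchd6; 4.04% of all), and RERE and BRE for 0 of the 25 by limma (3 at an unadjusted p under 0.05; 4.79% of all).

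In the authors' deposited table the JTK_CYCLE q values were below 0.05 for 2 of the 36 genes in RERE (Tomm70a and Gfer), 3 in BRE (Hspa9, Samm50 and Pmpca) and 11 in WT. Of all 12144 tested genes, JTK_CYCLE q values in the authors' deposited table were below 0.05 for 8.52% in RERE, 5.67% in BRE and 20.8% in WT. The BIOCYCLE q values in the authors' deposited table were below 0.05 for 1 in RERE (Gfer), 0 in EpiRE, 0 in BRE and 5 in WT (Tomm40, Tomm40l, Timm23, Samm50 and Gfer), and over all tested genes in the authors' deposited table for 1.56% in RERE, 0 genes in EpiRE, 0 in BRE and 10.0% in WT. Tomm40, the gene behind the choice, is 1 of the 11 JTK_CYCLE genes and 1 of the 5 BIOCYCLE genes in WT.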

How the data were processed

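Messenger RNA of 96 epidermis libraries (24 per genotype) was analysed from tables the authors deposited. The submitters' processing notes name Trimmomatic 0.36, HISAT2 2.2.1, SAMtools 1.3.1, featureCounts 1.6.0, edgeR and the build mm10. The deposited values are log2 expression per gene, 1 table per genotype. Their unit is not named, and they behave as log2 RPKM with an added prior count, inferred here as 2 reads. That floor also gave the estimate of each library's depth. The authors also deposited q values of JTK_CYCLE and BIOCYCLE.

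Of 22384 genes in all tables, 12144 with a mean of at least 1 RPKM were tested with limma 3.58.1 in R 4.3.3 (trend eBayes), as an F test of a 24 h cosine and sine within a genotype (24 libraries), or of their interaction with genotype for a rhythm difference (48 libraries, a free mean per genotype). The log2 values were tested as deposited, with no added pseudocount. P-values were adjusted by Benjamini and Hochberg over all tested genes, and called means below 0.05. A difference in size is the first genotype minus the second. The adjusted p of a rhythm difference tests size and phase together, and not the size difference printed beside it. SE in a genotype come from its own fit and those of a difference from the 2 genotypes' joint fit. The tests were tested on simulated data. Gene positions are from GENCODE M21.

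The 36 genes, the other lists and the tests were chosen with earlier results of these data known. Named with statistics are Tomm40, in each genotype the 4 largest called rhythms, in each difference the 4 smallest adjusted p-values, and the genes of highest and lowest level; every called gene among the 36 is named, and of the other lists up to 4 called genes per comparison, by smallest adjusted p. Values by mouse are shown at the sampled times nearest the fitted peak and trough in WT, or in BRE for Samm50, Pmpca and Hspa9. Separation of these times in that genotype, and overlap in others, follows in part from this choice.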

Additional observations from a re-analysis of the deposited data

Results flagged for a closer look

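Differences of rhythm between genotypes were flagged for 26 gene and contrast pairs, all from the limma F test with adjustment over 12144 genes. For BRE against WT these were Gfer (adjusted p = 2.61e-05), Mtx2 (0.000268), Timm50 (0.00288), Tomm40l (0.0031), Grpel2 (0.00659), Timm13 (0.0135), Timm8a1 (0.0151), Tomm70a (0.0219), Hspa9 (0.0286) and Timm23 (0.0473). For EpiRE against WT they were Samm50 (adjusted p = 0.00217), Tomm70a (0.0164), Tomm34 (0.0229), Tomm40l (0.0424) and Mtx2 (0.0431). For RERE against EpiRE they were Gfer (adjusted p = 0.0293), Samm50 (0.0306) and Tomm70a (0.0394), and for RERE against BRE Gfer (0.0333). For BRE against EpiRE they were Samm50 (adjusted p = 0.000309), Pmpca (0.00295), Hspa9 (0.00755), Timm17b (0.00999), Timm50 (0.0262), Gfer (0.028) and Tomm40l (0.0488). BRE against WT and EpiRE against WT share the WT mice, and the other contrasts likewise share a genotype, so a gene that recurs is not seen in independent mice.

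In 3 of 52 groups of 4 mice checked, 1 mouse stood far from the others by Dixon's criterion, which chance alone meets in about 1 of 20 groups. These were Gfer in EpiRE at ZT8 (98.5 RPKM, above the others), Samm50 in BRE at ZT4 (40.3 RPKM, below the others) and Hspa9 in BRE at ZT12 (61.5 RPKM, below the others).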

How the results depend on the processing

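Of the values recomputed for single called genes, 2179 kept direction and side of the threshold, 392 kept direction but passed the threshold no longer, and 0 reversed. Most of these fits left out 1 library and shared all others with the reported fit, so the lack of reversals says little. Counts of called genes moved by over 1.5 times as follows. After median-of-ratios rescaling they were 5 in RERE (8 as reported), 3 in BRE (6), 0 for RERE against WT (1), 2 for EpiRE against WT (6) and 1 for RERE against EpiRE (3). The shares of all tested genes called were then 14.8%, 12.7%, 0.082%, 5.4% and 3.57%, in that order. With no filter on low values the counts were 0 for RERE against WT, RERE against EpiRE and RERE against BRE (0.0089%, 1.57% and 2.26% of all genes). With time as 6 free levels the counts were 3 in RERE, 0 for RERE against WT, 7 for BRE against WT (11), 1 for RERE against EpiRE (Tomm70a, not Gfer) and 3 for BRE against EpiRE (7). Of all tested genes 10.75%, 0.14%, 13.0%, 2.27% and 7.47% were called, in that order. The cause was not tested, beyond the larger number of genes adjusted over without a filter (22384). On the log2(RPKM + 1) scale the counts were as reported. Replicate numbers did not pair the mice (mean correlation of same-numbered deviations 0.03 in RERE, -0.02 in EpiRE, -0.01 in BRE and -0.003 in WT). With the replicate block the count for RERE against WT was 0 (0.0329% of all tested genes), and the block moved no other count by over 1.5 times. Leaving out 1 replicate number at all times gave 2 to 7 in RERE, 0 to 1 in EpiRE, 0 to 5 in BRE and 8 to 17 in WT. Shares of all tested genes fell too, to 8.51% to 10.5%, 0.049% to 3.11%, 1.74% to 15.0% and 17.0% to 30.2%. For differences this gave 0 for RERE against WT, 1 to 6 for EpiRE against WT, 6 to 10 for BRE against WT, 0 to 1 for RERE against EpiRE, 0 to 1 for RERE against BRE and 2 to 5 for BRE against EpiRE. The shares of all tested genes were 0% to 0.0165%, 1.19% to 11.3%, 8.33% to 15.4%, 0.609% to 2.11%, 1.55% to 5.88% and 3.15% to 10.8%, in that order. Leaving out 1 library gave 5 to 9 in RERE (5 without RERE ZT0 replicate 2), 0 in EpiRE, 4 to 8 in BRE and 17 to 22 in WT. For differences it gave 0 to 3 for RERE against WT, 3 to 8 for EpiRE against WT (3 without EpiRE ZT20 replicate 3), 9 to 13 for BRE against WT, 0 to 7 for RERE against EpiRE, 0 to 1 for RERE against BRE and 5 to 8 for BRE against EpiRE. Shares of all tested genes are not given here for fits without 1 library. Rescaling shifts libraries by -0.09 to 0.09 log2 at most, which is not small beside rhythms of 0.2 log2, and levels between genotypes cannot be tested.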
